A study of Mus musculus with 25 samples.

Results

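Arg1 CKO (conditional knockout) and WT macrophages of one subset, the CD11c+ interstitial macrophages (IM) of tumor-bearing mouse lungs, were compared across 13434 genes. The libraries were chosen by their labels: 2 carried the genotype ARG1 CKO (label numbers 27 and 28, here CKO libraries 1 and 2) and 3 carried WT (20, 21 and 22, here WT libraries 1, 2 and 3), 5 of the 25 libraries of the series. All 5 came from mixed bone marrow chimeras, hosts whose blood system is rebuilt from marrow of 2 kinds of donor, so that the CKO and the WT cells develop beside each other. All carried a tumor of B16, a mouse melanoma line, and one batch label. The labels give neither the floxed exons nor the driver of the Cre, nor the age of the animals, and do not say whether each library is from another animal, so that the p-values measure the spread between these samples, which may be technical. The series as a whole addresses IL-9 signaling and arginine metabolism in lung tumor macrophages. Of its other libraries, 3 Arg1 CKO and 3 WT libraries of CD11c- IM, 3 libraries labelled Il9r knockout (KO) and 2 labelled WT of CD11c+ IM from a separate kind of chimera, and 1 CKO and 1 WT library of naive total macrophages are set beside the 5. In that separate kind of chimera Il9r, the receptor chain for IL-9, had reads in the CD11c+ IM libraries labelled Il9r KO. It was at 4.10, 2.87 and 1.75 CPM there (counts per 1e6 counts of a library). In both labelled WT it was at 0 CPM, as in the WT libraries of both subsets of the Arg1 CKO chimeras. Gene-level counts cannot tell whether these reads cover the part removed in the knockout, and the labels were not tested. Each direction given for these libraries thus rests on the label alone.

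Interstitial macrophages lie in the tissue between the airspaces of the lung, whereas alveolar macrophages lie in the airspaces. Arg1 encodes arginase 1, which splits arginine into ornithine and urea. Ornithine feeds the synthesis of polyamines and proline, and the use of arginine by arginase competes with its use by nitric oxide synthase. Macrophages of wounds and tumors often express Arg1 strongly, and the loss of arginine around such cells can restrain T cells.

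The 5 libraries held 32308968 to 56904167 counts, the 2 CKO libraries (32308968 and 34325216) fewer than the 3 WT libraries (41180617 to 56904167), with 12126 to 12466 genes detected. Levels are CPM with TMM scaling of the library totals. Itgax, the gene of CD11c, was at 431 and 369 CPM in CKO libraries and at 191, 323 and 335 CPM in WT libraries, against 11.1 to 21.6 CPM in the 6 CD11c- libraries of the same chimeras. Of 14 IM markers none was at 0 in any of the 5 libraries, and of 21 alveolar macrophage markers, 2 that define these cells, Siglecf and Car4, stayed between 0.74 and 3.60 CPM in each, whereas the list as a whole was well expressed and is described below. WT library 1 stood apart from the others. Of 8019 genes with a mean log2 CPM of at least 3, a deviation of more than 2-fold from the mean of the other WT libraries was found in 852 (10.6%) for WT library 1, in 275 for WT library 2 and in 263 for WT library 3, and 231 genes differed by that much between the 2 CKO libraries.

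Few genes separated CKO from WT cells beyond the spread of the libraries. Lyz1, a lysozyme, and Hal, histidine ammonia-lyase, which starts the breakdown of histidine, were higher in CKO libraries. Ctse, an intracellular aspartic protease, Pwp2, a factor of ribosome assembly, Mapkbp1, a scaffold protein of JNK signaling, and Ribc1, a protein of ciliary microtubules, were lower. These 6 genes were the calls of edgeR's quasi-likelihood test (adjusted p under 0.05), 0.0447% of the genes tested, with 0.0149% higher and 0.0298% lower. At an unadjusted p under 0.05 there were 410 higher (3.05%) and 369 lower genes (2.75%), together 5.8% of those tested. In 2658 genes (19.8%) the CKO and WT libraries did not overlap, so that a gap between the groups by itself was common. Each of the 6 calls was lost when CKO library 1 or CKO library 2 was left out, as given with each gene below. In a fit of the 5 libraries alone 5 of the 6 were lost (all but Lyz1), and with limma-voom 4 (all but Ctse and Lyz1).

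**Figure D1:**
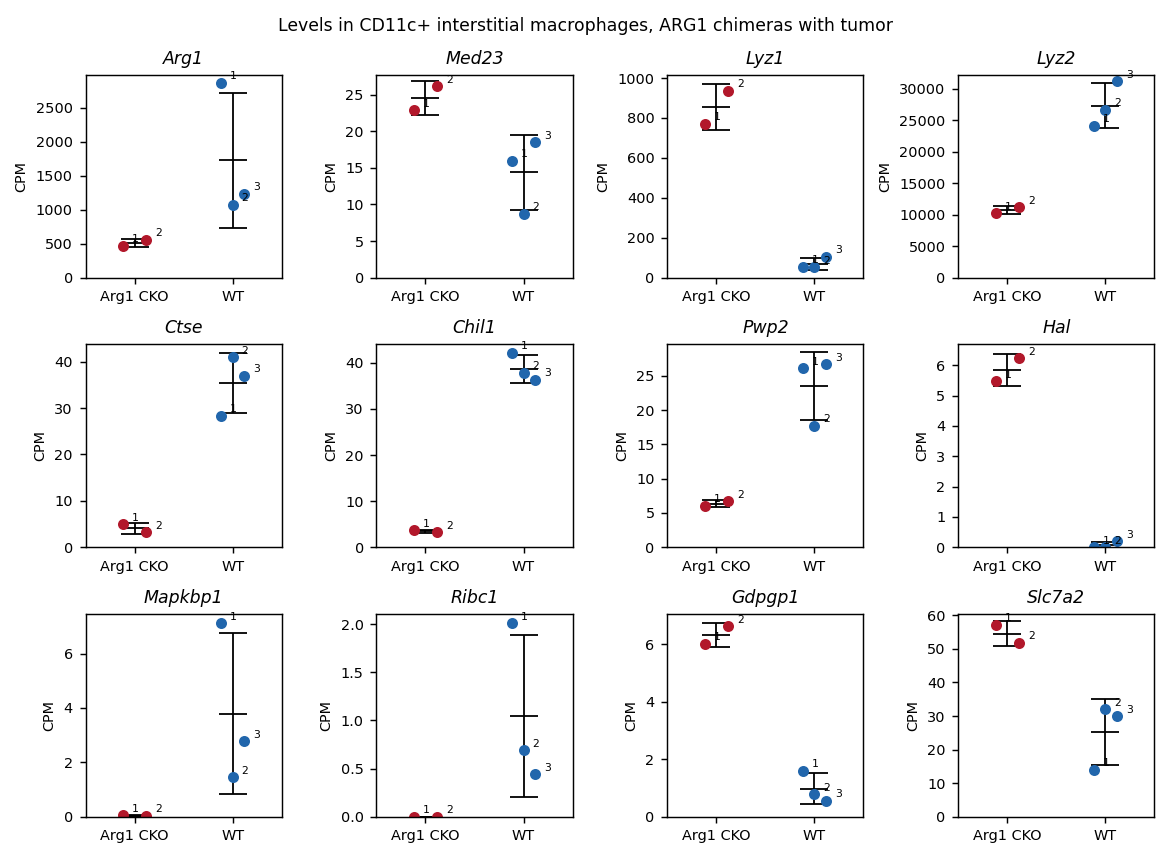
CPM (linear axes from 0) of 12 genes in the 2 Arg1 CKO (red) and 3 WT (blue) libraries of CD11c+ interstitial macrophages; each point is a library with its number, and bars give the mean and SD. Arg1 lay at 473 and 555 CPM in CKO libraries and highest in WT library 1 (2866 CPM), and Ctse and Chil1 lay under 5 CPM in both CKO libraries.

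Arg1 itself (chromosome 10, 24915221 to 24927484, minus strand, mm10) was at 473 and 555 CPM in CKO libraries and at 2866, 1074 and 1232 CPM in WT libraries. The CKO libraries were both below every WT library, but the WT libraries spread widely, with library 1 far above the others. The means were 514 ± 57.5 CPM in CKO libraries (SD, n = 2) and 1724 ± 992 CPM in WT libraries (SD, n = 3). The log2 fold change was -1.75 (SE 0.62) and did not pass the test over all genes (edgeR adjusted p = 0.775). On the mean of log2 CPM, CKO minus WT was -1.61 (two-sided exact permutation p = 0.2, the smallest value reachable with 10 splits of 2 against 3 libraries). Without WT library 1 the log2 fold change was -1.17. Reads of Arg1 thus remained in CKO libraries (15630 and 19060 counts), and gene-level counts cannot tell whether they cover the floxed exons. In bulk RNA, fewer cells that express a gene and less RNA per cell cannot be told apart.

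Genes of arginine uptake and use gave few differences. Of 19 measured members of that list, Arg1 among them, 6 had a positive and 13 a negative log2 fold change (median -0.14, and -0.07 with members at 0 in one genotype set to their bound), where 45.9% of all genes tested were positive and 52.3% negative (median -0.02). EdgeR, DESeq2 and limma-voom called 0 of them, and 1 higher and 2 lower members, Slc7a2 and then Arg1 and Prmt1, had an unadjusted p under 0.05. Slc7a2, a transporter that carries arginine into the cell, was at 57.2 and 51.8 CPM in CKO libraries and at 13.9, 32.0 and 29.9 CPM in WT libraries (log2 fold change 1.11, SE 0.50, edgeR adjusted p = 0.775). Without WT library 1 its log2 fold change was 0.82, and in CD11c- IM it was -0.83 (SE 0.47). Slc7a2 is also a member of the list of alveolar macrophage markers described below. Nos2, the inducible nitric oxide synthase, was low in all 5 libraries, at 8.23 and 12.7 CPM in CKO and at 14.4, 5.26 and 15.3 CPM in WT libraries. Arg2, the mitochondrial arginase, was at 18.4 and 18.6 CPM in CKO and at 16.7, 10.9 and 20.9 CPM in WT libraries. Oat, which turns ornithine toward proline, was at 106 and 115 CPM in CKO and at 103, 123 and 119 CPM in WT libraries. For Nos2, Arg2 and Oat both CKO values lay within the WT range.

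Genes of polyamine and hypusine synthesis, which lie downstream of ornithine, had 4 positive and 10 negative log2 fold changes among 14 members (median -0.17). None was called by edgeR, DESeq2 or limma-voom, and 1 had an unadjusted p under 0.05. That gene was Azin1, an inhibitor of antizyme that keeps ornithine decarboxylase stable, at 107 and 106 CPM in CKO libraries and at 42.1, 85.7 and 97.2 CPM in WT libraries (log2 fold change 0.50, SE 0.23, edgeR adjusted p = 0.775), with WT library 1 the low one. Odc1, ornithine decarboxylase itself, was at 108 and 120 CPM in CKO and at 141, 123 and 126 CPM in WT libraries. Eif5a, the protein that carries hypusine, was at 878 and 893 CPM in CKO and at 1495, 936 and 946 CPM in WT libraries, again with WT library 1 apart. Without WT library 1 the median of the arginine list was -0.05 and that of the polyamine list -0.11. Genes of the amino acid stress response lay near the median of all genes (23 members, 8 positive, median -0.07, 0 called by edgeR, DESeq2 or limma-voom and 1 at an unadjusted p under 0.05).

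Med23, a subunit of the Mediator complex of RNA polymerase II, ends 1539 bases from the end of Arg1 on the opposite strand (chromosome 10, 24869986 to 24913681, plus strand). It was at 22.9 and 26.2 CPM in CKO libraries and at 15.9, 8.72 and 18.5 CPM in WT libraries, with no overlap (log2 fold change 0.77, SE 0.33, edgeR adjusted p = 0.775). In CD11c- IM it was at 81.1, 57.8 and 41.2 CPM in CKO libraries and at 18.0, 21.0 and 18.9 CPM in WT libraries (log2 fold change 1.63, SE 0.30, edgeR adjusted p = 0.173). Med23 was thus highest in the 3 CD11c- CKO libraries of these chimeras, where Arg1 was at 2738, 2246 and 1671 CPM. In the CD11c- WT libraries Arg1 was higher, at 6181, 4485 and 3541 CPM, and Med23 lower. The strand setting of the counting is not given in the sources used here, so that reads from one gene running into the other cannot be told apart. Among the other Mediator subunits Med12 was at 39.4 and 32.7 CPM in CKO and at 17.2, 15.0 and 22.0 CPM in WT libraries (log2 fold change 1.00, SE 0.32, edgeR adjusted p = 0.775), while 20 of 32 subunits had a negative log2 fold change (median -0.16). On the other side of Arg1 the nearest gene tested was Akap7, an anchoring protein of protein kinase A, at 25.8 and 15.8 CPM in CKO and at 16.6, 14.1 and 17.2 CPM in WT libraries.

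The lysozyme genes lay in opposite directions. Mice carry a pair of lysozyme genes side by side on chromosome 10: Lyz2 (117277331 to 117282321, minus strand), the main lysozyme of macrophages, and Lyz1 (117287797 to 117292868, minus strand), known mainly from Paneth cells of the gut, 5475 bases away. Their coding sequences have 447 bases each and differ at 22 of them (identity 95.1%), with a longest identical run of 118 bases. The first 150 coding bases are shown since coding reads of the pair are told apart by such differences alone. This stretch is among the most different ones: windows of 150 coding bases hold 2 to 15 differences. The parts of the transcripts outside the coding sequence were not compared. Capitals mark the 14 positions that differ (mm10, GENCODE vM21 transcripts).
Lyz1: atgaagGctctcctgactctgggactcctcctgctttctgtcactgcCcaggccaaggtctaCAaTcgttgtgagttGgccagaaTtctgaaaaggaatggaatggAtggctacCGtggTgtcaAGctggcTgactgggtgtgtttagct
Lyz2: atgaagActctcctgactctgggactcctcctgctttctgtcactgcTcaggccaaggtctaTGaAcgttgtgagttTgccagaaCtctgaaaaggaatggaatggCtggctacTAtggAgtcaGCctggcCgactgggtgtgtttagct

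Lyz1 was at 772 and 937 CPM in CKO libraries and at 54.5, 52.4 and 105 CPM in WT libraries. Both CKO libraries lay far above all WT libraries, and their mean of 854 ± 117 CPM (SD, n = 2) was 12.1 times the WT mean of 70.6 ± 29.8 CPM (SD, n = 3). The log2 fold change was 3.60 (SE 0.62, edgeR adjusted p = 0.0458). This call lay close to the threshold and was lost without any 1 of the 5 libraries: the edgeR adjusted p was 0.189 and 0.102 without CKO library 1 or 2, and 0.456, 0.288 and 0.0979 without WT library 1, 2 or 3, with log2 fold changes of 3.42 to 4.00.

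Lyz2 was at 10250.2 and 11200.0 CPM in CKO libraries and at 24099, 26639 and 31192 CPM in WT libraries, again without overlap. The log2 fold change was -1.35 (SE 0.33) and did not pass edgeR's test (adjusted p = 0.427), though DESeq2 called it (adjusted p = 0.00902). Both genes together reached 11022 and 12137 CPM in CKO libraries and 24153, 26692 and 31297 CPM in WT libraries, so that the reads counted for Lyz1 were far fewer than those by which Lyz2 was lower. Lyz1 made up 7.00% (95% Wilson interval 6.92% to 7.09%) and 7.72% (7.64% to 7.80%) of the reads of the pair in the CKO libraries. In WT libraries 1, 2 and 3 it made up 0.226% (0.216% to 0.236%), 0.196% (0.188% to 0.205%) and 0.336% (0.327% to 0.344%). These intervals cover counting error only, and reads that match both genes may have been divided or dropped by the counting.

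The same pattern was present in the other libraries of the ARG1 chimeras. In CD11c- IM Lyz1 was at 151, 235 and 516 CPM in CKO libraries and at 19.8, 29.2 and 87.3 CPM in WT libraries (log2 fold change 2.73, SE 0.57, edgeR adjusted p = 0.533), and Lyz2 at 4166, 4038 and 7309 CPM in CKO and at 11476, 13138 and 20023 CPM in WT libraries (log2 fold change -1.52, SE 0.29, edgeR adjusted p = 0.173). In naive macrophages, with 1 library a genotype, Lyz1 was at 2632 CPM in CKO and 408 CPM in WT and Lyz2 at 10169 CPM in CKO and 36391 CPM in WT (TMM scaling over all 25 libraries). In the CD11c+ IM of the IL9R chimeras neither gene was called (log2 fold changes 0.25 and 0.32, edgeR adjusted p = 1 for both): Lyz1 was at 96.3, 86.6 and 113 CPM in libraries labelled Il9r KO and at 83.2 and 82.2 CPM in those labelled WT, and Lyz2 at 32024, 39971 and 52821 CPM in those labelled Il9r KO and at 27524 and 38993 CPM in those labelled WT.

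Of the other genes listed with the lysozymes, Ctse (chromosome 1, 131638306 to 131675505, plus strand) was at 4.93 and 3.20 CPM in CKO libraries and at 28.4, 41.0 and 36.9 CPM in WT libraries. The CKO mean of 4.07 ± 1.23 CPM (SD, n = 2) was 0.115 of the WT mean of 35.4 ± 6.43 CPM (SD, n = 3). The log2 fold change was -3.12 (SE 0.44, edgeR adjusted p = 0.0058), and the call was lost without CKO library 1 (adjusted p = 0.129) or CKO library 2 (0.102) and in a fit of the 5 libraries alone (0.0747). In CD11c- IM Ctse was the 1 call of the same comparison (0.00744% of genes), at 3.31, 1.80 and 5.59 CPM in CKO and at 20.1, 26.8 and 27.1 CPM in WT libraries (log2 fold change -2.79, SE 0.37, edgeR adjusted p = 0.00404, and 0.0871 without CD11c- CKO library 1). The 24 measured genes of the lysozyme and cathepsin list had 15 positive and 9 negative log2 fold changes (median 0.17), with Ctse and Lyz1 the 2 called. Ctsk, a collagen-degrading cathepsin, was at 530 and 427 CPM in CKO and at 137, 175 and 297 CPM in WT libraries (log2 fold change 1.24, SE 0.57, edgeR adjusted p = 0.775). Ctsb, Ctsl and Ctsd, the abundant cathepsins, had log2 fold changes of -0.05, -0.16 and 0.35 and were not called.

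Chil1, a chitinase-like secreted protein, showed a gap of similar size without a call. It was at 3.66 and 3.23 CPM in CKO libraries and at 42.1, 37.8 and 36.3 CPM in WT libraries (log2 fold change -3.49, SE 0.72, edgeR adjusted p = 0.170, and 1.23e-05 with DESeq2). The mean was 3.45 ± 0.307 CPM in CKO libraries (SD, n = 2) and 38.7 ± 3.04 CPM in WT libraries (SD, n = 3). In CD11c- IM it was at 11.2, 2.88 and 9.16 CPM in CKO and at 52.5, 29.5 and 52.9 CPM in WT libraries, and in naive macrophages at 5.37 CPM in CKO and 37.0 CPM in WT. Chil3, the related protein Ym1, lay the other way, at 1591 and 1160.2 CPM in CKO and at 407, 501 and 769 CPM in WT libraries (log2 fold change 1.30, SE 0.65, edgeR adjusted p = 0.775). Ctse and Chil1 lie 6.39 and 3.87 Mb from Ptprc, the gene of CD45, on chromosome 1. Ptprc itself was at 299 and 302 CPM in CKO and at 113, 282 and 286 CPM in WT libraries (log2 fold change 0.40, SE 0.36, edgeR adjusted p = 0.857).

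**Figure D2:**
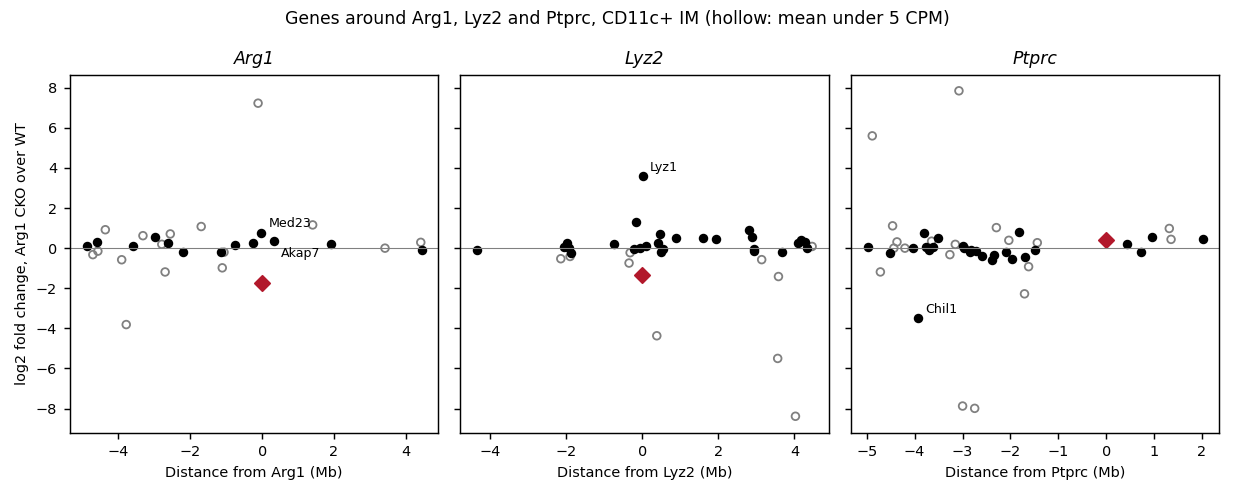
Log2 fold change of Arg1 CKO over WT in CD11c+ interstitial macrophages for the genes within 5 Mb of Arg1, Lyz2 and Ptprc, by distance in Mb; red diamonds are these 3 genes, filled points have a mean of at least 5 CPM, hollow points less, where a fitted value is no bound. Lyz1 (3.60) stands beside Lyz2 (-1.35) and Chil1 (-3.49) lies 3.87 Mb from Ptprc, while most filled points lie near 0.

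Few genes near these loci were called. Of 29 genes tested within 5 Mb of Arg1, 18 had a positive and 10 a negative log2 fold change (median 0.19), edgeR called 0, and 3 had an unadjusted p under 0.05 (10.3%, against 5.8% of all genes). Of 37 near Lyz2, 20 positive and 17 negative (median 0.01), 1 was called, Lyz1, and 5 had an unadjusted p under 0.05 (13.5%). Of 46 near Ptprc, 22 positive and 22 negative (median 0), 0 were called by edgeR and 7 had an unadjusted p under 0.05 (15.2%). The share of genes without overlap of the libraries was 24.1%, 21.6% and 19.6% around Arg1, Lyz2 and Ptprc, against 19.8% of all genes. Ctse, at 6.39 Mb from Ptprc, lies outside the window around it. Arg1, Pwp2, Hal, Lyz1 and Lyz2 all lie on chromosome 10, Pwp2 53.2 Mb and Hal 68.6 Mb from Arg1. Of the 100 genes of smallest p, 6 lie on that chromosome, which holds 4.69% of the genes tested. Chromosome 1, with Ctse and Chil1, held 8 of the 100 (5.86% of the genes tested), and chromosome 2 held the most, 11 (7.79%).

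Pwp2, a subunit of the small subunit processome that assembles ribosomes (chromosome 10, 78170909 to 78185149, minus strand), was at 6.02 and 6.69 CPM in CKO libraries and at 26.1, 17.7 and 26.7 CPM in WT libraries. Both CKO libraries lay well below the lowest WT library, with means of 6.36 ± 0.472 CPM in CKO libraries (SD, n = 2) and 23.5 ± 5.00 CPM in WT libraries (SD, n = 3). The log2 fold change was -1.89 (SE 0.27, edgeR adjusted p = 0.0058, and 0.218 and 0.0612 without CKO library 1 or 2). The call was also lost in a fit of the 5 libraries alone (edgeR adjusted p = 0.999) and with limma-voom (adjusted p = 0.120). In CD11c- IM it was at 14.4, 8.00 and 8.89 CPM in CKO and at 21.6, 21.5 and 19.7 CPM in WT libraries (log2 fold change -1.0, SE 0.22, edgeR adjusted p = 0.627). The naive libraries held 21.1 CPM in CKO and 23.0 CPM in WT. The other processome and ribosome assembly genes did not go with it: of 37 members 23 had a positive log2 fold change (median 0.09), and Pwp2 was the only one called. Polr1b, a subunit of RNA polymerase I, was at 19.2 and 14.9 CPM in CKO and at 8.54, 4.95 and 13.1 CPM in WT libraries (log2 fold change 0.94, SE 0.38, edgeR adjusted p = 0.775).

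The remaining calls were genes of low counts that were nearly absent in one genotype. Hal (chromosome 10, 93488768 to 93519304, plus strand) was at 5.48 and 6.23 CPM in CKO libraries (181 and 214 counts) and at 0, 0 and 0.195 CPM in WT libraries (0, 0 and 11 counts), with an edgeR adjusted p of 0.0297. In CD11c- IM Hal did not separate the genotypes, at 3.77, 3.99 and 7.25 CPM in CKO and at 5.15, 3.36 and 3.62 CPM in WT libraries. The WT CD11c+ libraries thus held less Hal than any CD11c- library of the same chimeras. In naive macrophages, with 1 library a genotype, Hal lay the other way, at 0.870 CPM in CKO and 2.05 CPM in WT. Among the 11 measured genes of ammonia, glutamine and histidine use Hal was the 1 called. Amdhd1, which acts further along the breakdown of histidine, stayed at or below 0.955 CPM in all 5 libraries.

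Mapkbp1 (chromosome 2, 119972699 to 120027408, plus strand) was at 0.061 and 0.029 CPM in CKO libraries (2 and 1 counts) and at 7.11, 1.45 and 2.78 CPM in WT libraries (255, 61 and 157 counts), with an edgeR adjusted p of 0.0212. In CD11c- IM it was at 4.77, 7.28 and 2.00 CPM in CKO and at 4.21, 3.61 and 2.60 CPM in WT libraries. The naive libraries held 8.61 CPM of Mapkbp1 in CKO and 5.08 CPM in WT. Ribc1 (chromosome X, 152004582 to 152016295, minus strand) had 0 counts in both CKO libraries and 72, 29 and 25 counts in WT libraries (2.01, 0.691 and 0.442 CPM), at least 11.8-fold lower in CKO against a floor of 3 counts per library (edgeR adjusted p = 0.0458). Gdpgp1, a GDP-glucose phosphorylase, was next in order and not called by edgeR (6.02 and 6.63 CPM in CKO and 1.59, 0.786 and 0.548 CPM in WT libraries, edgeR adjusted p = 0.069, and 0.0464 without WT library 1). DESeq2 called Gdpgp1 (DESeq2 adjusted p = 8.11e-05). Without CKO library 1 or 2 the edgeR adjusted p was 0.133 and 0.0612 for Hal, 0.38 and 0.198 for Mapkbp1, and 0.691 and 0.244 for Ribc1. Hal lost its call also without WT library 1 (0.191) or 2 (0.152), and Ribc1 without WT library 1 (0.131) or 2 (0.0796). All 3 were also lost in a fit of the 5 libraries alone (edgeR adjusted p = 0.999 for each) and with limma-voom (adjusted p = 0.788 for Hal, 0.906 for Mapkbp1 and 0.788 for Ribc1).

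Il9r had 61 reads (1.85 CPM) in CKO library 1 and none in CKO library 2 or the 3 WT libraries. In the IL9R chimeras its reads lay in the 3 libraries labelled Il9r KO, as given above. Since 1 library holds all reads of the 5, no difference between CKO and WT is read from it.

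Genes were ranked by p among those whose libraries did not overlap and whose higher group averaged 5 CPM or more. The 10 of smallest p that were higher in CKO held, beside Lyz1, Hal and Gdpgp1, 7 genes that edgeR did not call. DESeq2, which called 44 of all 13434 genes tested, called each of these 7 (DESeq2 adjusted p = 0.00857 to 0.0415). Both tests used the same counts from which the genes were ranked, so that this is no independent support. None of the other alternatives called them. Ckap5, a microtubule polymerase, was at 30.6 and 41.5 CPM in CKO and at 16.5, 18.8 and 13.6 CPM in WT libraries (log2 fold change 1.15, SE 0.25, edgeR adjusted p = 0.284). Dstyk, a kinase, was at 18.6 and 20.4 CPM in CKO and at 7.76, 7.53 and 8.51 CPM in WT libraries (1.30, SE 0.29, edgeR adjusted p = 0.326). Phtf2, Dhx40 (an RNA helicase), Dbt (a subunit of the branched-chain keto acid dehydrogenase), Fgfr1op (a centrosomal protein) and Vkorc1l1 (a vitamin K reductase) had log2 fold changes of 0.89 to 1.56 and edgeR adjusted p-values of 0.284 to 0.471. On the lower side, beside Ctse, Pwp2, Chil1 and Lyz2, Uck1, a uridine kinase, was at 20.8 and 25.5 CPM in CKO and at 53.6, 38.8 and 34.0 CPM in WT libraries (-0.87, SE 0.20, edgeR adjusted p = 0.385). Cdc6, which licenses DNA replication, was at 0.757 and 1.66 CPM in CKO and at 5.08, 5.14 and 6.44 CPM in WT libraries (-2.20, SE 0.60, edgeR adjusted p = 0.627). Tssc1, Zfp429, Exoc7 (a subunit of the exocyst) and Tldc1 had log2 fold changes of -0.71 to -1.84 and were not called by edgeR either. DESeq2 called Uck1 (DESeq2 adjusted p = 0.00951), Tssc1 (0.0213) and Cdc6 (0.0389), but not Zfp429, Exoc7 or Tldc1. The proliferation list had 12 positive and 14 negative log2 fold changes (median -0.06, and -0.25 without WT library 1) and 0 calls by edgeR, DESeq2 or limma-voom, with 0 of the 26 at an unadjusted p under 0.05.

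The log2 fold changes ran with the GC content of the transcripts. Over 7761 genes with a mean log2 CPM above 3, the log2 fold change correlated with GC content at a Spearman rho of -0.45 (across genes, which are not independent). From the lowest to the highest GC decile the median log2 fold change ran from 0.19 to -0.26. WT library 1 ran from -0.65 to 0.55 around the mean of the 21 tumor libraries over these deciles, whereas the other 4 libraries stayed between -0.08 and 0.03. Without WT library 1 the rho was -0.09, and it was 0.08 for the CKO comparison in CD11c- IM. The 224 genes above that level with an unadjusted p under 0.05 and higher values in CKO had a median GC content of 44.6%, and the 226 lower ones 54.5%, against 49.6% of all these genes. An offset for GC content and length per library, chosen after seeing the data, left 5 of the 6 calls (all but Lyz1, edgeR adjusted p = 0.106). Without WT library 1 Ctse, Pwp2 and Mapkbp1 were called, with Gdpgp1, and with both changes Ctse and Pwp2 alone.

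**Figure D3:**
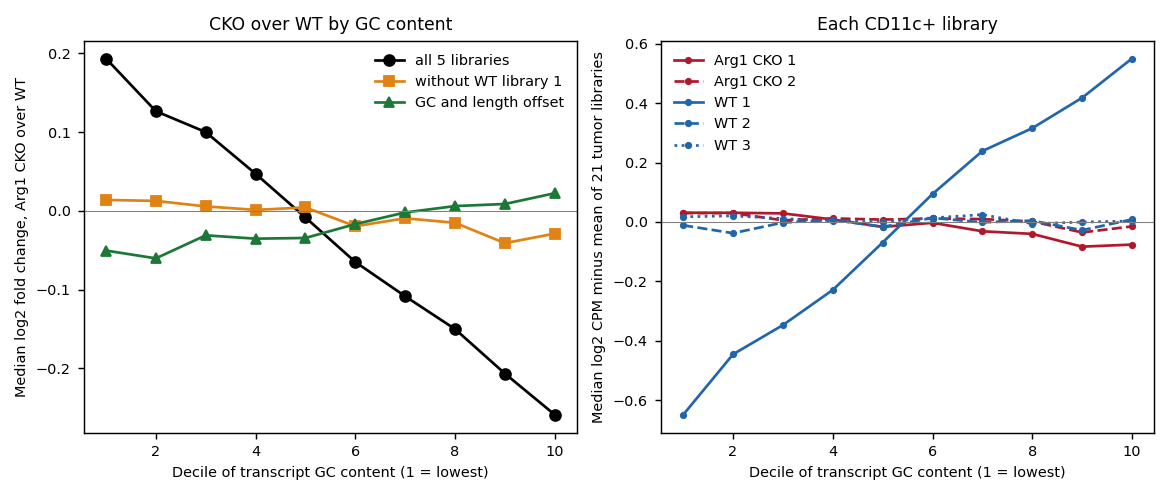
Left, median log2 fold change of Arg1 CKO over WT by decile of transcript GC content for all 5 libraries, without WT library 1, and with an offset for GC content and length; right, median deviation of each CD11c+ library from the mean of the 21 tumor libraries (log2 CPM). WT library 1 runs from -0.65 to 0.55, and the slope at left (0.19 to -0.26) is nearly gone without it.

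Macrophage programs described by lists showed small shifts, and in most of them WT library 1 was the library that lay apart. Genes of glycolysis and hypoxia summed to 13916 and 14770 CPM in CKO libraries and to 24549, 14545 and 14691 CPM in WT libraries. Of 27 members 20 had a negative log2 fold change (median -0.24), and the median was -0.03 without WT library 1. Inflammatory cytokines and chemokines summed to 12122 and 12644 CPM in CKO and to 25065, 12247 and 12953 CPM in WT libraries (20 of 28 negative, median -0.24, and -0.05 without WT library 1). Interferon response genes summed to 2272 and 2490 CPM in CKO and to 4769.8, 2253 and 2665 CPM in WT libraries (25 of 35 negative, median -0.26, and -0.07 without WT library 1). In all 3 lists CKO libraries and WT libraries 2 and 3 lay close together and WT library 1 lay high. Irf7, a transcription factor of the interferon response, was at 261 and 288 CPM in CKO and at 1235, 297 and 323 CPM in WT libraries, and Ccl7, a chemokine for monocytes, at 994 and 819 CPM in CKO and at 3542, 1356 and 923 CPM in WT libraries. With the offset for GC content the medians were -0.16, -0.27 and -0.30, so that for cytokines and interferon genes the offset did not do what leaving out the library did. EdgeR, DESeq2 and limma-voom called 0 members of these lists, with 0, 0 and 1 members at an unadjusted p under 0.05.

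Genes of oxidative phosphorylation had a median of -0.12 (25 members), and of 0.03 without WT library 1. MHC class II genes summed to 37815 and 39558 CPM in CKO and to 47354, 39088 and 37892 CPM in WT libraries (12 of 15 negative, median -0.20, and -0.07 without WT library 1). Genes of alternative activation had a median of -0.15 (24 members) and the ligands of T cell costimulation and checkpoints -0.09 (15 members), with 0 called in each of these 4 lists by edgeR, DESeq2 and limma-voom. Of these lists alternative activation alone had a member at an unadjusted p under 0.05. That member was Folr2, a folate receptor of tissue macrophages, at 121 and 122 CPM in CKO and at 565, 146 and 155 CPM in WT libraries.

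**Figure D4:**
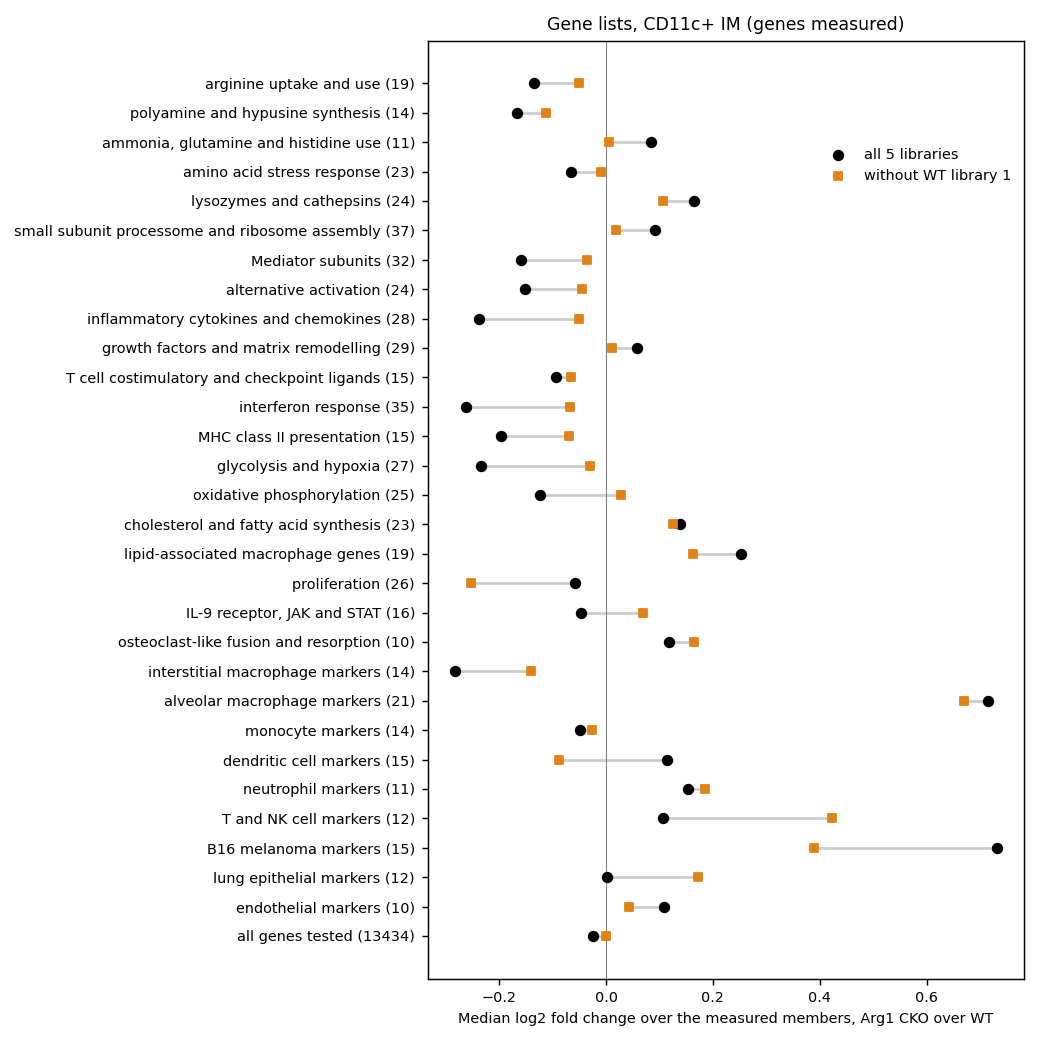
Median log2 fold change of Arg1 CKO over WT for each list with at least 10 measured genes (number in parentheses) and for all genes tested, with all 5 libraries (black) and without WT library 1 (orange). Alveolar macrophage markers (0.71 and 0.67) keep their place, whereas glycolysis (-0.24 and -0.03), cytokine (-0.24 and -0.05) and interferon (-0.26 and -0.07) lists move toward 0.

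Markers of alveolar macrophages had mostly positive log2 fold changes. Of 21 members 19 had a positive log2 fold change (median 0.71), 12 were higher in CKO without overlap (9.99% of all genes) and 6 had an unadjusted p under 0.05. EdgeR, DESeq2 and limma-voom called 0. Their summed level was 6189.8 and 5132 CPM in CKO libraries and 2985, 3932 and 4133 CPM in WT libraries. Without WT library 1 17 of 21 were positive and the median was 0.67, with 1 member at an unadjusted p under 0.05. The median of the list was 0.17 in CD11c- IM. Chil3 is a member, and so is Fabp5, a fatty acid binding protein at 1704 and 1759 CPM in CKO and at 1144, 1423 and 1433 CPM in WT libraries. Atp6v0d2, a subunit of the proton pump of lysosomes, was at 466 and 304 CPM in CKO and at 72.7, 228 and 242 CPM in WT libraries (log2 fold change 1.09, SE 0.48, edgeR adjusted p = 0.775). Siglecf was at 2.27 and 2.41 CPM in CKO and at 3.60, 1.19 and 0.743 CPM in WT libraries, and Marco at 2.30 and 8.12 CPM in CKO and at 1.00, 1.43 and 14.5 CPM in WT libraries, so that Siglecf was under 4 CPM in all 5 libraries, Marco was not, and the genotypes overlapped for both.

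IM markers summed to 32882 and 34477 CPM in CKO libraries and to 49025, 38182 and 34949.5 CPM in WT libraries (12 of 14 negative, median -0.28, and -0.14 without WT library 1). Their 12 negative members had no call by edgeR, DESeq2 or limma-voom and none had an unadjusted p under 0.05, while 6 of the 14 were lower in CKO without overlap (9.8% of all genes). Genes of lipid-associated macrophages were positive in 14 of 19 (median 0.25) and in 17 of 19 without WT library 1 (median 0.16). The list shares Ctsk, Fabp4 and Fabp5 with the alveolar markers. Gpnmb, a glycoprotein of lipid-laden macrophages, was at 5345 and 4644 CPM in CKO and at 1782, 3382 and 3526 CPM in WT libraries (log2 fold change 0.79, SE 0.39, edgeR unadjusted p = 0.0565 and adjusted p = 0.775). Genes of cholesterol and fatty acid synthesis were positive in 18 of 23 (median 0.14, and 0.12 without WT library 1).

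Markers of monocytes, which include Chil3, summed to 2781 and 2880 CPM in CKO libraries and to 2959, 1746 and 2583 CPM in WT libraries, and markers of dendritic cells to 581 and 622 CPM in CKO and to 686, 659 and 538 CPM in WT libraries. Red cell and platelet markers summed to 523 and 487 CPM in CKO and to 1250 CPM in WT library 1, 676 in WT library 2 and 531 in WT library 3. Nearly all came from Pf4, a chemokine listed here as a platelet marker (503 and 470.4 CPM in CKO and 1214, 655 and 516 CPM in WT libraries). In CD11c- IM Pf4 was at 1171 to 1969 CPM in CKO and at 1190 to 1867 CPM in WT libraries. Which cells its reads came from was not tested. Markers of the remaining cells had lower sums. B16 melanoma markers summed to 142 and 146 CPM in CKO libraries and to 70.0, 104 and 110 CPM in WT libraries, with 11 of 15 positive (median 0.73, and 0.39 without WT library 1) and 1 to 3 of 15 at 0 in each library. Tyrp1, a pigment enzyme, was at 34.2 and 36.7 CPM in CKO and at 8.82, 20.9 and 19.1 CPM in WT libraries. T and NK cell markers summed to 22.4 and 33.3 CPM in CKO and to 17.1, 23.1 and 31.8 CPM in WT libraries, and 4 to 9 of 12 were at 0. B and plasma cell markers summed to 20.5 and 23.6 CPM in CKO and to 39.8, 28.7 and 26.8 CPM in WT libraries. Lung epithelial markers summed to 59.8 and 66.7 CPM in CKO and to 64.6, 51.5 and 48.6 CPM in WT libraries, and neutrophil markers to 191 and 350.3 CPM in CKO and to 281, 176 and 303 CPM in WT libraries. DESeq2 called 1 of 12 T and NK cell markers and 1 of 8 B and plasma cell markers, beside 44 of all 13434 genes tested. EdgeR called none of either list (0 and 1 members at an unadjusted p under 0.05). The part of these cells in the differences above was not tested.

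By edgeR and limma-voom the difference between CKO and WT cells was not shown to vary between the subsets. For the effect in CD11c+ minus that in CD11c- IM edgeR called 0 of 13434 genes (519 or 3.86% at an unadjusted p under 0.05) and limma-voom 0. DESeq2 called 18, Mapkbp1 among them. For Mapkbp1 this difference was -6.74 (edgeR adjusted p = 0.153), for Hal 5.95 (0.717), for Lyz1 0.87 (1) and for Ctse -0.34 (1) on the log2 scale. Ctse, Chil1 and Lyz2 thus had values of the same sign and similar size in both subsets, whereas Hal, Mapkbp1 and Gdpgp1 were at 0.31, 0.43 and -0.16 in CD11c- IM.

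**Figure D5:**
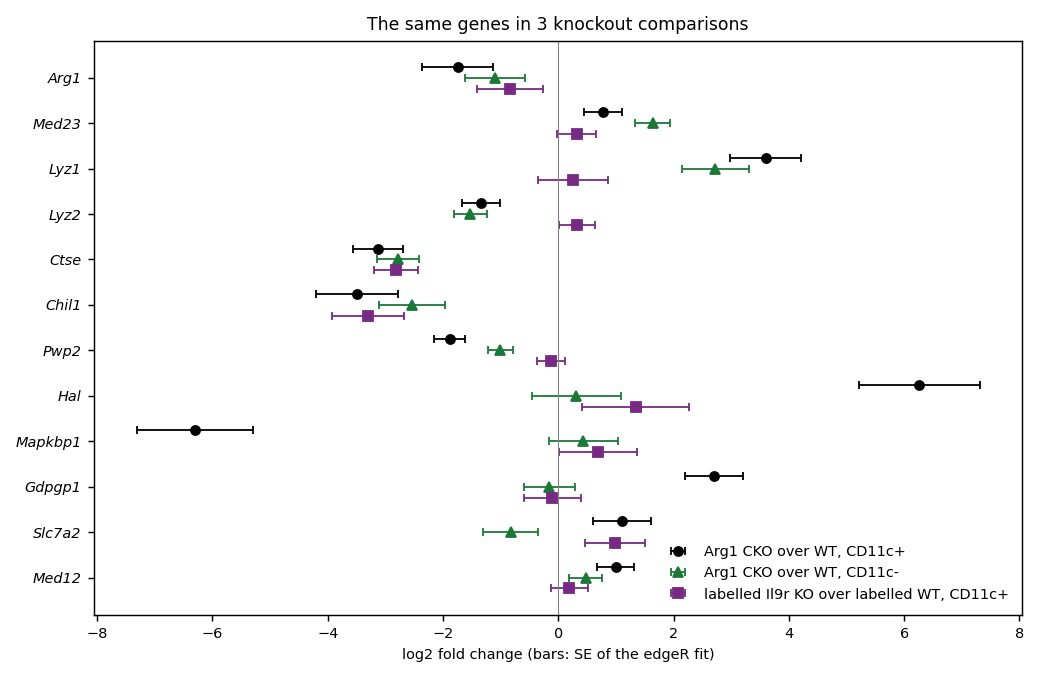
Log2 fold changes with their SE for 12 genes in 3 comparisons: Arg1 CKO over WT in CD11c+ (black) and in CD11c- (green) interstitial macrophages, and libraries labelled Il9r KO over those labelled WT in CD11c+ interstitial macrophages (purple). Ctse lies at -3.12, -2.79 and -2.82 in the 3 comparisons, Lyz1 at 3.60, 2.73 and 0.25.

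The libraries labelled Il9r KO and WT of CD11c+ IM share no library with this comparison, and among them only those labelled Il9r KO held Il9r reads. By their labels they gave Ctse and Chil1 values of the same sign. Ctse was at 5.44, 8.06 and 7.90 CPM in libraries labelled Il9r KO and at 48.9 and 51.8 CPM in those labelled WT (log2 fold change -2.82, SE 0.38, edgeR adjusted p = 0.00222, 1 of 4 calls or 0.0298% of genes). Chil1 was at 6.68, 5.35 and 2.42 CPM in libraries labelled Il9r KO and at 59.0 and 35.6 CPM in those labelled WT (log2 fold change -3.30, SE 0.62, edgeR adjusted p = 0.107). Pwp2 had a log2 fold change of -0.13 (SE 0.25) there, with 18.8 to 20.8 CPM in libraries labelled Il9r KO and 21.9 CPM in both labelled WT. The test of the difference between the 2 knockout effects called 2 genes (0.0149%), Wdfy1 and Dynlt1b. In a fit of the contrasted groups alone both were lost and Lyz1 was the 1 gene called, and limma-voom called 0 (368 genes at an unadjusted p under 0.05).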

How the data were processed

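PolyA RNA was sequenced in SMART-seq v4 and Nextera XT libraries, per the labels' protocols. The authors deposited a table of raw counts by gene and library. Per the submitters' processing notes, FastQC 0.11.5, STAR 2.7.10a, featureCounts and Subread 2.0.3 were used with mm10; annotation, strand setting, treatment of reads with several matches and gene filter are not given in the sources used here. Genes were taken by symbol, since the identifier column of the deposited table named the same gene as the symbol column in only 2.19% of 11949 genes that GENCODE vM21 could compare. Of 13482 genes in the deposited counts, 13434 passed filterByExpr. Positions, GC content and length were found by symbol in GENCODE vM21 (positions for 96.2% of the table's genes).

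All 21 tumor libraries were fitted together with edgeR 4.0.16 in R 4.3.3 (a term for each of 8 groups, TMM scaling, robust quasi-likelihood F-test, two-sided, Benjamini-Hochberg adjustment over all genes tested, 13 residual degrees of freedom, no replicate block). The fit was also run on simulated counts with known changes. These held no GC gradient and no changed genes of low counts, so that they do not bear on the calls of low counts. Log2 CPM used a prior count of 2. Alternatives were DESeq2 1.42.0, limma-voom (limma 3.58.1), other scaling, filter and grouping, each library left out and a replicate block, with an offset for GC content and length added after seeing the data. Library totals of 32308968 counts or more, without molecular identifiers, limit precision for genes near the floor of 3 counts per library. CPM of naive libraries is scaled over all 25 libraries.

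The libraries compared, the gene lists and the tests were chosen with earlier results of these data known. Named were Arg1, Itgax, Ptprc, Lyz1, Lyz2, Il9r, the neighbours of Arg1, every call, the 10 genes of smallest p per direction (5 CPM or more in the higher group, no overlap), the 1 or 2 members of smallest p of a list and the most abundant marker of a cell type. Other genes named (Nos2, Arg2, Oat, Odc1, Eif5a, Amdhd1, Ctsb, Ctsl, Ctsd, Car4, Siglecf and Marco) were picked for their role or abundance after their values were seen. For 34 lists only counts and medians are given. One result is not reported here.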

Additional observations from a re-analysis of the deposited data

Results flagged for a closer look

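Wdfy1, an endosomal adaptor protein, met the test for a difference between the knockout effects in CD11c+ IM. Its mean was 5.59 ± 0.494 CPM in Arg1 CKO libraries (SD, n = 2) and 8.28 ± 3.22 CPM in WT libraries of the ARG1 chimeras (SD, n = 3), and 67.7 ± 11.2 CPM in libraries labelled Il9r KO (SD, n = 3) and 9.06 ± 1.81 CPM in those labelled WT of the IL9R chimeras (SD, n = 2). The Arg1 effect minus the Il9r effect was -3.47 on the log2 scale (SE 0.45, edgeR adjusted p = 0.00343).

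Dynlt1b, a dynein light chain with near-identical copies, differed in the same test, by 3.62 (SE 0.50, edgeR adjusted p = 0.00439). It averaged 5.67 ± 0.785 CPM in Arg1 CKO libraries (SD, n = 2) and 7.92 ± 2.10 CPM in WT libraries of the ARG1 chimeras (SD, n = 3), and 0.30 ± 0.050 CPM in libraries labelled Il9r KO (SD, n = 3) and 5.19 ± 0.946 CPM in those labelled WT of the IL9R chimeras (SD, n = 2). Both genes thus stood out through the libraries labelled Il9r KO, which held the Il9r reads among the CD11c+ IM libraries of that chimera. Both calls were lost in a fit of the contrasted groups alone and with limma-voom. Within the Arg1 comparison their log2 fold changes were -0.57 and -0.48 and not called. No group of the CD11c+ comparison has 4 or more libraries, so outlying libraries were not tested for.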

How the results depend on the processing

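For Arg1 CKO against WT in CD11c+ IM, the 6 calls became 44 with DESeq2 (all 6 among them), 2 with limma-voom (Ctse, Lyz1), 2 in a fit of the 5 libraries alone (Lyz1, Chil1), 2 with the offset for GC content and length without WT library 1, and 1 to 5 with 1 library left out (1 without CKO library 1, 2 without CKO library 2, neither count holding any of the 6, and 4, 3 and 5 without WT library 1, 2 or 3). In CD11c- IM the 1 call became 10 with DESeq2, 0 in a fit of the contrasted groups alone and 0 to 1 with a library left out. The 0 calls for a difference between the subsets became 18 with DESeq2 and 0 to 1 with a library left out. The 2 calls between the knockout effects became 38 with DESeq2, 1 with the contrasted groups alone (Lyz1), 0 with limma-voom and 0 to 4 with a library left out. RLE scaling, no filter and a fit without robust left all 6 calls of the CD11c+ comparison, and other scaling moved the median log2 fold change by 0.023 or less.

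Deviations of CKO and WT libraries with the same number in their titles correlated at -0.08 and -0.18 over 8019 genes. With 2 CKO libraries these deviations mirror each other, so that the 2 values are not separate checks. WT library 1 also stood apart from the other WT libraries, so that a shared host might not show. The title numbers were not taken as pairs, but these values cannot decide whether they are. Other matches of CKO to WT libraries were not tested, and the labels do not say which libraries share a host. Among the 5 libraries CKO library 2 and WT library 3 were the closest (Pearson r = 0.977). A replicate block by these title numbers gave 5 calls in CD11c+ IM (Lyz1 lost, and 1336 genes whose unadjusted p was under 0.05). It gave 3 calls in CD11c- IM and 1 between the knockout effects. Signs turned for some genes that were never called: Apoe with the offset (0.090), Bst2 with the offset without WT library 1 (0.078) and from -0.57 to 0.041 with a library left out, Cd4 (-0.094 with the offset without WT library 1, and -0.092 to 0.54), Csf3r (-0.33 to 0.41), Ccr3 (1.61 with limma-voom, and -0.76 to 0.53) and Akap7 (-0.014 to 0.69). The causes were not tested. With 2 CKO libraries, leaving out 1 assumes that the other varies like the other groups, and genes under about 1 CPM rest on few reads.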
